A study of Mus musculus with 18 samples.

Results

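The matrix metalloproteinases Mmp2, Mmp3, Mmp9, Mmp13, Mmp14 and Mmp19 and the tissue inhibitors of metalloproteinases Timp1, Timp2, Timp3 and Timp4 were followed in mouse fat by RNA sequencing. These 10 genes, 6 proteinases and 4 inhibitors, were picked by symbol from the 25124 genes that each deposited count table lists. No cut-off on a measured value was used, but the choice was made with earlier results of these data known. The libraries came from wildtype (WT) mice and from mice with a global Casp6 knockout (C6KO), each sampled at 3 fat depots: the inguinal (iWAT) and the epididymal (eWAT) depot, which are white, and the brown depot (BAT). Per the study's methods, both genotypes were male, had a C57BL/6J background and came from crosses of heterozygous parents. All 18 libraries, 3 per depot and genotype, were from mice on a high-fat diet (HFD, 60% fat) for 12 weeks, which began at an age of 10 to 14 weeks, and the mice were fasted for 10 h before tissue collection. No chow-fed group was analysed here, and the deletion was not confined to fat cells. The labels do not say whether the depots came from the same mice. The question was how the level of each gene differed between C6KO and WT in each depot, and between depots.

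Matrix metalloproteinases are zinc-dependent enzymes that cut collagens, laminins, proteoglycans and other proteins of the extracellular matrix, the scaffold in which fat cells sit. They are made as inactive precursors, and several are activated by plasmin, by furin-like convertases or by each other. The tissue inhibitors bind the active site, so protein activity depends on the balance of both families and cannot be read from mRNA. In fat, stromal progenitors, endothelial cells and macrophages are known sources of these enzymes, and matrix turnover accompanies the enlargement of fat cells.

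Among the proteinases, Mmp2 is a gelatinase that degrades denatured collagen and basement membrane collagen, and Mmp14 is a membrane-anchored enzyme that activates the Mmp2 precursor together with Timp2. Mmp3, stromelysin-1, cuts proteoglycans and activates other proteinases. Mmp9 is the other gelatinase and is typical of myeloid cells, Mmp13 is a collagenase, and Mmp19 is a secreted proteinase with basement membrane substrates. Timp1 and Timp2 are soluble inhibitors, Timp3 binds to the matrix and also inhibits ADAM and ADAMTS proteases, and Timp4 is an inhibitor with a restricted tissue distribution.

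The stretches upstream of 4 of these genes are printed because Mmp3 and Mmp13 share a short motif that Timp1 and Timp4 lack there. Each shows the 100 bases before the RefSeq transcript start (GRCm38.p6), 5′ to 3′ on the gene's strand, and capitals mark the letters TGAGTCA or TGACTCA, the reverse complement of each other and the usual AP-1 motif. They lie at chr9:7445722-7445821 (plus strand) for Mmp3, chr9:7272414-7272513 (plus strand) for Mmp13, chrX:20870066-20870165 (plus strand) for Timp1 and chr6:115252206-115252305 (minus strand) for Timp4.
Mmp3: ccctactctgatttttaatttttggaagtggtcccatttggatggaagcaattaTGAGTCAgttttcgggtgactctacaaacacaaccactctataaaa
Mmp13: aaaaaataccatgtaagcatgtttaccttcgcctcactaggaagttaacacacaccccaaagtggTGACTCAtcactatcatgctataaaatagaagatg
Timp1: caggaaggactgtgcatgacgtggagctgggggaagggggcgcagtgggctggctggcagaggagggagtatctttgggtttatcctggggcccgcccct
Timp4: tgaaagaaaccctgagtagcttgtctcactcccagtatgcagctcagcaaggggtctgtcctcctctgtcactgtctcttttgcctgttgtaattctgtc

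The AP-1 letters began 46 bases before the start of Mmp3 and 35 bases before that of Mmp13, and 4.46% of the 32851 mouse promoters in the same table held them within 250 bases of the start. Of the 10 genes, 7 matched an entry of that table (Mmp3, Mmp13, Mmp14 and the 4 inhibitors), while Mmp2, Mmp9 and Mmp19 did not. None of the other 5 windows held the AP-1 letters. The GC box GGGCGG or its reverse complement CCGCCC was found 2 times upstream of Mmp14 and 1 time each upstream of Timp1, Timp2 and Timp3, against 32.7% of all promoters, and was not found upstream of Mmp3, Mmp13 or Timp4. A match of letters is a description and not a binding site.

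The tables hold raw counts per gene. The iWAT libraries totalled 16506034 to 19043523 counts, the eWAT libraries 16717201 to 19139694 and the BAT libraries 7803108 to 12428683, so low counts weighed most in BAT. Casp6 was lower in each C6KO library than in each WT library of its depot, with log2 fold changes of -1.51 (iWAT), -1.85 (eWAT) and -1.50 (BAT), although its Benjamini-Hochberg adjusted p from edgeR was 0.0751, 0.0132 and 0.0671 in turn. Ucp1, the uncoupling protein of brown fat, was at 2731 to 6744 RPKM (reads per kilobase of transcript, scaled to library size) in BAT and at most at 3.4 in the white depots. BAT WT replicate 2 stood apart: it held 107683 counts of the skeletal muscle actin Acta1, against 95 and 2807 in the other BAT WT libraries and 1114 to 12824 in BAT C6KO, so the BAT genotype estimates of the members are also given without it. In iWAT, C6KO replicate 3 stood apart from the other C6KO libraries in macrophage marker genes, which summed to 1020 RPKM against 333 and 385. These markers themselves were lower in C6KO than in WT. Replicate 1 stood apart in fibroblast and progenitor markers, at 725 RPKM against 1121 and 1183. Over all genes tested, the iWAT C6KO libraries were about equally far from each other (chi-square per degree of freedom of 60.96, 62.54 and 62.25 for the pairs).

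In WT mice, the inhibitors made up more of the summed level than the proteinases in every depot, and the leading gene changed with the depot. Levels between genes are compared per length, as RPKM scaled by trimmed mean of M values (TMM). In eWAT, Timp2 led at 310 ± 17 RPKM (SD, n = 3 here and below), or 43.4% of the sum of the 10 genes, ahead of Mmp2 at 117 ± 13 and Mmp14 at 94.6 ± 12. In iWAT, Timp3 at 136 ± 19 and Timp2 at 125 ± 9.0 were at 27.7% and 25.6% of the sum, and their libraries overlapped. In BAT, Timp3 at 96.1 ± 23 RPKM took 42.4% of the sum.

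Mmp2, Mmp14 and Timp2, the components of the Mmp2 activation complex, had the same order of depots in WT: highest in eWAT, then iWAT, then BAT, with no overlap between neighbouring depots. Mmp2 was at 117 ± 13, 67.4 ± 3.7 and 19.2 ± 4.9 RPKM in that order, Mmp14 at 94.6 ± 12, 57.5 ± 10 and 12.9 ± 4.6, and Timp2 at 310 ± 17, 125 ± 9.0 and 41.9 ± 20. Mmp19 followed the same order without overlap, at 51.8 ± 8.2, 34.3 ± 2.1 and 21.1 ± 1.9 RPKM. Timp1 was at 32.4 ± 11 RPKM in eWAT, 5.06 ± 1.1 in iWAT and 3.50 ± 1.7 in BAT, and the iWAT and BAT libraries overlapped. The share of all genes that separated between depots without overlap is not given here. Depot differences were common: 25.7% (eWAT against iWAT), 38.7% (BAT against iWAT) and 48.6% (BAT against eWAT) of all genes passed the test described below.

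Other members were highest in iWAT. Mmp3 was at 26.0 ± 1.8 RPKM in iWAT, 13.2 ± 3.1 RPKM in eWAT and 5.31 ± 0.87 RPKM in BAT, and no 2 depots overlapped. Timp4 was at 35.4 ± 6.3 RPKM in iWAT, 25 ± 2.5 in BAT and 11.4 ± 2.3 in eWAT, also with no overlap, and Timp3 at 136 ± 19 in iWAT lay just above the highest library of BAT at 96.1 ± 23 and eWAT at 83.8 ± 11, which overlapped each other. Mmp9 at 0.827 to 1.55 RPKM and Mmp13 at 0.689 to 2.24 RPKM (depot means) were the lowest members in each depot.

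**Figure D1:**
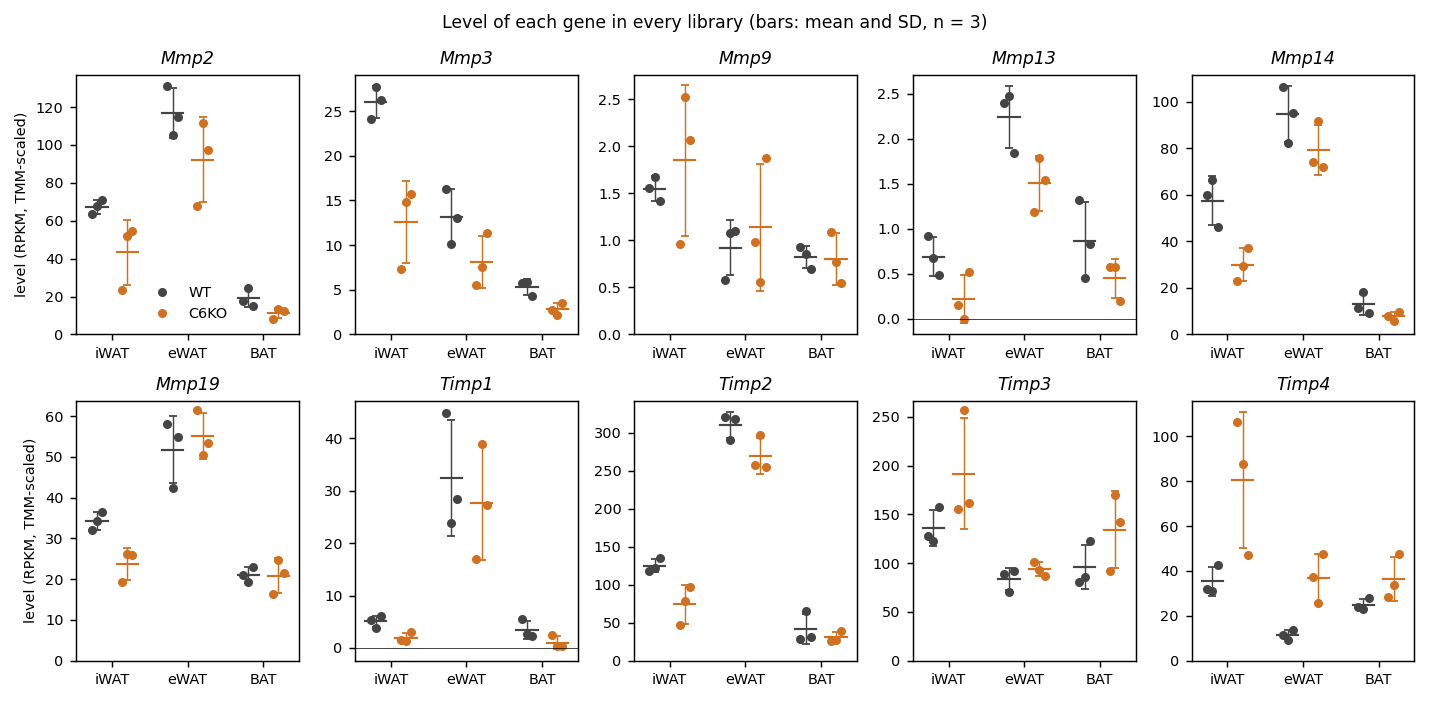
Level of each of the 10 genes (RPKM, vertical axis) in every library, by depot and genotype, with 1 point per library and the mean and SD (n = 3) as bars. In C6KO, Timp4 sits above WT without overlap in all 3 depots, at 47.3 to 106 against 31.3 to 42.7 RPKM in iWAT.

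Between depots in WT, 8 of the 10 genes passed the test for eWAT against iWAT, which asks for an adjusted p below 0.05 over the 15866 genes tested and at least 1.5-fold in edgeR's quasi-likelihood fit of all 18 libraries. Over all genes 25.7% passed, 12.8% higher and 12.9% lower. Timp1 (6.38-fold, adjusted p = 0.000875), Timp2 (2.47-fold, 0.00210), Mmp2 (1.73-fold, 0.0370), Mmp14 (1.65-fold, 0.0316) and Mmp19 (1.51-fold, 0.0104) were higher in eWAT, and Timp4 (3.09-fold, 0.000522), Mmp3 (1.98-fold, 0.0132) and Timp3 (1.62-fold, 0.0295) were lower. The count of 8 was 4 without iWAT WT replicate 1, eWAT WT replicate 1 or eWAT WT replicate 3, 5 without iWAT WT replicate 3 or eWAT WT replicate 2, and 7 without iWAT WT replicate 2.

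In BAT, 5 genes passed the test against iWAT, all lower, where 38.7% of all genes passed and 18.7% did so as lower. They were Mmp3 (4.90-fold), Mmp14 (4.44-fold), Mmp2 (3.50-fold), Timp2 (2.98-fold) and Mmp19 (1.63-fold). Against eWAT, 7 of 10 passed, beside 48.6% of all genes (25% higher and 23.6% lower): Timp1 (9.42-fold), Timp2 (7.38-fold), Mmp14 (7.30-fold), Mmp2 (6.07-fold), Mmp3 (2.47-fold) and Mmp19 (2.45-fold) were lower, and Timp4 was higher (2.18-fold, adjusted p = 0.00300). The counts of 5 and 7 were the same without BAT WT replicate 2.

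In C6KO mice, the depots differed in 8 of 10 genes for eWAT against iWAT, 6 for BAT against iWAT and 7 for BAT against eWAT, beside 24.6%, 38.2% and 50.1% of all genes. For eWAT against iWAT 6 were higher and 2 lower (14.1% and 10.5% of all genes), and in both BAT comparisons each that passed was lower (20.2% and 26.5% of all genes). Timp1 was 13.9-fold higher in eWAT than in iWAT of C6KO mice and 28.4-fold lower in BAT than in eWAT, where the BAT libraries held only 17, 3 and 3 counts. On the log2 scale the Timp1 difference between BAT and eWAT was -4.83, and -6.34 without BAT C6KO replicate 1, the library with 17 counts. The Timp4 log2 difference between BAT and eWAT in C6KO was -0.01 (95% interval -0.60 to 0.58), and the test of its difference from that in WT did not pass (edgeR adjusted p = 0.256). Depots were deposited as separate tables with lower totals in BAT, so any difference in handling between them and the depot itself cannot be told apart.

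In iWAT, 7 of the 10 genes were separated between C6KO and WT without overlap, 6 lower and 1 higher, where 12.2% of the 14533 genes tested were lower and 10.9% higher in this way. None passed the test in edgeR (0.0275% of all genes did). Before adjustment, 5 had p below 0.05 and a lower estimate and 2 a higher one, beside 9.29% and 7.25% of all genes, and DESeq2 called 5 of the 10, beside 4.72% of all genes with an adjusted p in that tool (169 higher and 505 lower). The median log2 fold change was -0.69 over the 10 genes and 0.03 over all genes. In bulk tissue, fewer cells of a type and less RNA per cell cannot be told apart.

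Mmp3 was at 42.8, 48.8 and 46.6 CPM (counts scaled to library size) in the iWAT WT libraries and at 13.1, 26.3 and 27.7 CPM in C6KO. The groups did not overlap, and the log2 fold change was -1.04 ± 0.26 (SE; edgeR adjusted p = 0.165). Mmp14 was at 226, 248 and 173 CPM in WT and at 86.9, 112 and 139 CPM in C6KO. Its log2 fold change was -0.94 ± 0.20, with the smallest adjusted p of the 10 genes (0.154).

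Mmp2 stood at 193, 205 and 215 CPM in WT against 72.0, 159 and 164 CPM in C6KO, a log2 fold change of -0.63 ± 0.29 (adjusted p = 0.328). C6KO replicate 1 was the lowest C6KO library here and for Mmp3, Mmp9, Mmp14, Mmp19 and Timp2. Timp2 stood at 423, 437 and 486 CPM in WT against 168, 285 and 345 CPM in C6KO, a log2 fold change of -0.76 ± 0.24 (adjusted p = 0.201). Mmp14, the activator of the Mmp2 precursor, and its partner Timp2 were thus lower in each C6KO library of iWAT than in any WT library. Timp1 was counted only 78, 57 and 95 times in WT, against 25, 21 and 47 times in C6KO, a log2 fold change of -1.34 ± 0.40 (adjusted p = 0.184). Mmp19 was at 109, 115 and 123 CPM in WT and at 65.6, 88.9 and 86.9 CPM in C6KO, a log2 fold change of -0.52 ± 0.14 (adjusted p = 0.166).

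Timp4 went the other way. Its iWAT WT libraries were at 93.6, 90.6 and 124 CPM and its C6KO libraries at 312, 256 and 137 CPM. C6KO replicate 3 lay close to the WT range, and the log2 fold change was 1.19 ± 0.29 (adjusted p = 0.165). Timp3 was at 592, 567 and 730.4 CPM in WT and at 727, 1195 and 747 CPM in C6KO, where the ranges just overlapped (log2 fold change 0.50 ± 0.22, adjusted p = 0.297). Mmp9 (83, 89 and 80 counts in WT, 54, 145 and 114 in C6KO) and Mmp13 (41, 30 and 23 counts against 7, 0 and 24) overlapped. The count of 0 for Mmp13 allows up to 3 counts, or 0.164 CPM, for counting error alone.

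Without iWAT C6KO replicate 3, 6 of the 10 genes passed the test: Mmp3, Mmp14, Mmp19, Timp1 and Timp2 lower and Timp4 higher, with adjusted p from 0.00144 for Timp4 to 0.0458 for Mmp19. Calls over all genes went up with them, from 1 higher and 3 lower to 327 and 951, or 8.64% of the 14798 genes tested without that library. No member passed when any other iWAT library was left out. With all 18 libraries in 1 fit, Timp4 was the 1 member that passed (adjusted p = 0.0405), and Mmp14 was next (0.0510).

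In eWAT, Timp4 was the 1 member of 10 that passed the test, beside 0.746% of the 14889 genes tested (0.537% as higher). It was at 36.9, 29.6 and 44.5 CPM in WT and at 121, 82.6 and 155 CPM in C6KO, so that the lowest C6KO library lay well above the highest WT library. Timp4 rose 3.24-fold (log2 fold change 1.70 ± 0.25, 95% interval 1.11 to 2.28, edgeR adjusted p = 0.0432). The size of this change was 1.46 to 1.91 on the log2 scale when any library was left out. The call was lost without WT replicate 1, 2 or 3 (adjusted p = 0.138, 0.168 and 0.125) and without C6KO replicate 1 or 3 (0.0957 and 0.0529), and was kept without C6KO replicate 2 (0.0104). It was also lost with total counts as the only scaling (0.0501) and in the fit of all 18 libraries (0.0571).

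No other eWAT member passed. Mmp13 was the 1 gene lower without overlap, at 6.97, 7.32 and 5.42 CPM in WT and at 3.48, 5.21 and 4.58 CPM in C6KO, a log2 fold change of -0.57 ± 0.24 (edgeR adjusted p = 0.253). Mmp3 was at 31.8, 20.1 and 25.8 CPM in WT and at 11, 14.8 and 22.6 CPM in C6KO, which overlapped (log2 fold change -0.68 ± 0.27, adjusted p = 0.247). Mmp2, Mmp14 and Timp2 had log2 fold changes of -0.34, -0.25 and -0.20, with overlapping groups, and 95% intervals that reached from -0.73, -0.55 and -0.46 to 0.06, 0.05 and 0.07. In all, 1 of 10 genes was lower and 1 higher without overlap, beside 11.2% and 12% of all genes. Before adjustment, Mmp3 and Mmp13 had p below 0.05 and lower estimates and Timp4 a higher one, beside 7.82% and 9.81% of all genes. The median log2 fold change of the 10 genes was -0.20, against -0.01 over all genes.

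In BAT no member passed the test in edgeR or DESeq2, while 1.24% of the 13595 genes tested passed in edgeR. Before adjustment, 4 had p below 0.05 and lower estimates (Mmp2, Mmp3, Mmp14 and Timp1) and 1 a higher one (Timp4), beside 8.64% and 4.56% of all genes. Mmp2 and Mmp3 were lower and Timp4 higher without overlap, which held for 12.1% and 8.07% of all genes. Without WT replicate 2, again no member passed in edgeR, 3 had p below 0.05 and lower estimates (Mmp2, Mmp3 and Timp1) and 1 a higher one (Timp4), beside 7.81% and 5.58% of all genes, and Mmp2, Mmp3 and Mmp13 were lower and Timp4 higher without overlap, beside 16.7% and 14.2%. The median log2 fold change was -0.59 over the members and -0.03 over all genes.

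Mmp3 was at 9.05, 9.96 and 7.0 CPM in the BAT WT libraries and at 4.49, 3.56 and 5.74 CPM in C6KO, a log2 fold change of -0.91 ± 0.28 (adjusted p = 0.185). Mmp2 was at 48.1, 71.3 and 42.3 CPM in WT and at 23.1, 37.3 and 35 CPM in C6KO, a log2 fold change of -0.76 ± 0.25 (adjusted p = 0.210). For Mmp2 the highest value was that of the muscle-rich WT replicate 2. Without this library the log2 fold changes were -0.80 for Mmp3 and -0.50 for Mmp2.

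Timp4 stood at 62.2, 64.1 and 74.2 CPM in BAT WT against 77.3, 91.3 and 127 CPM in C6KO, a log2 fold change of 0.56 ± 0.20 (adjusted p = 0.255), and 0.53 without WT replicate 2. Mmp14 stood at 38.8, 64.6 and 31.5 CPM in WT against 27.1, 20.1 and 33.7 CPM in C6KO, a log2 fold change of -0.74 ± 0.29 that was -0.38 without WT replicate 2. Timp2 stood at 92.4, 222 and 104 CPM in WT against 87.5, 93.1 and 128 CPM in C6KO. The high Timp2 value was again WT replicate 2, and its log2 fold change of -0.44 ± 0.35 turned to 0.07 without that library. Timp1 was counted 33, 25 and 19 times in WT, against 17, 3 and 3 times in C6KO, too few to place the fold change more closely than a 95% interval of -3.50 to -0.02 on the log2 scale, around an estimate of -1.76 that was -1.91 without WT replicate 2 and -3.27 without C6KO replicate 1. Timp3 (0.49 ± 0.26), Mmp19 (-0.01 ± 0.18), Mmp9 (-0.04 ± 0.39) and Mmp13 (-0.89 ± 0.55) overlapped between genotypes in BAT. Without WT replicate 2 these log2 fold changes were 0.44, -0.044, 0.025 and -1.18 in turn.

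**Figure D2:**
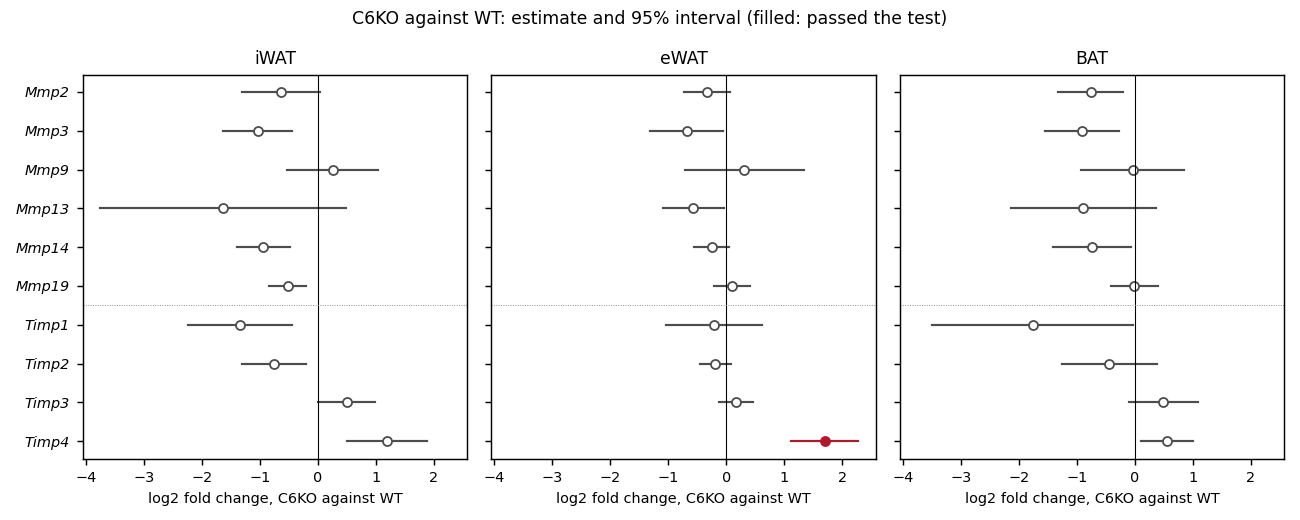
Log2 fold change of C6KO against WT (horizontal axis) with its 95% interval for each gene in iWAT, eWAT and BAT, from edgeR fits of 3 against 3 libraries. The filled point is the 1 that passed the test, Timp4 in eWAT at 1.70, and open points did not pass.

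The C6KO effect itself was compared between depots in the fit of all 18 libraries. No member passed an adjusted p below 0.05 for eWAT minus iWAT, BAT minus iWAT or BAT minus eWAT in edgeR or in DESeq2, where 0%, 0.183% and 0.536% of all genes passed in edgeR. Before adjustment, 1 member of 10 had p below 0.05 in each of these, beside 5.48%, 9.93% and 11.2% of all genes. Mmp19 differed by 0.62 on the log2 scale for eWAT minus iWAT (edgeR adjusted p = 0.890) and by 0.51 for BAT minus iWAT (adjusted p = 0.484), and Timp4 by -1.14 for BAT minus eWAT (adjusted p = 0.256). The 95% interval of that Timp4 difference ran from -1.98 to -0.29. Differences for Mmp3 between depots were 0.35 (eWAT minus iWAT, interval -0.48 to 1.19) and -0.24 (BAT minus eWAT, interval -1.13 to 0.66).

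Summed over the families, the inhibitors stood higher relative to the proteinases in C6KO, library by library. The inhibitors did not all move together: in each depot Timp3 and Timp4 had higher and Timp1 and Timp2 lower estimates in C6KO. The ratio of the summed Timp level to the summed Mmp level (RPKM) was 1.42 to 1.88 in iWAT WT and 2.27 to 4.18 in iWAT C6KO. It was 1.48 to 1.62 in eWAT WT and 1.72 to 1.96 in eWAT C6KO, and 2.38 to 3.46 in BAT WT and 4.07 to 4.91 in BAT C6KO. The ranges did not overlap in any depot, and no test was run on this sum over chosen genes. The summed Mmp level was 182 to 198 RPKM in iWAT WT and 74.3 to 136 in iWAT C6KO, and the summed Timp level was 281 to 342 and 309 to 425 RPKM. In eWAT both sums overlapped between genotypes, at 244 to 315 RPKM in WT and 211 to 264 in C6KO for Mmp and at 394 to 466 and 413 to 454 for Timp, whose mean was 438 in WT and 428 in C6KO. In BAT the Mmp sum was 53.3 to 69.3 RPKM in WT and 36.5 to 48.2 in C6KO, without overlap, and the Timp sum was 139 to 184 and 149 to 232, with overlap.

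**Figure D3:**
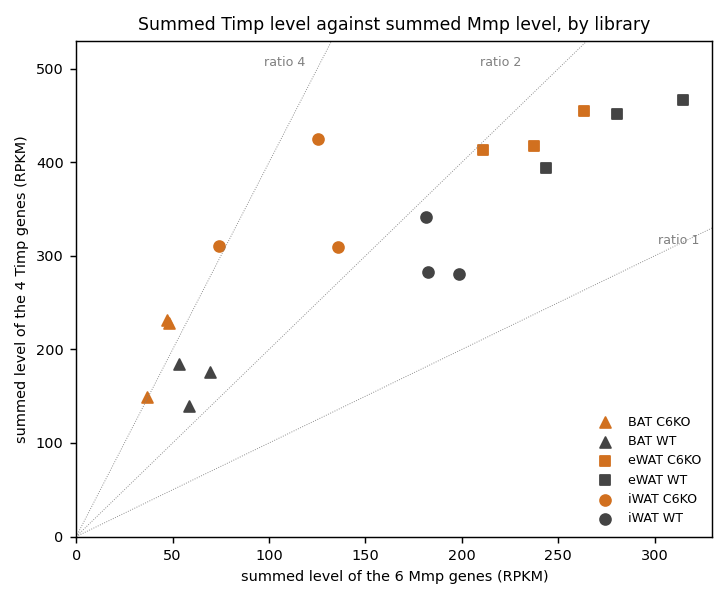
Summed level of the 4 inhibitor genes (vertical axis, RPKM) against that of the 6 proteinase genes (horizontal axis, RPKM), with 1 point per library and dotted lines at ratios of 1, 2 and 4. Within each depot the C6KO libraries lie at higher ratios than the WT libraries, for example 2.27 to 4.18 against 1.42 to 1.88 in iWAT.

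In the make-up of the sum, in iWAT, Timp4 made up 7.19% ± 0.85 of the summed level in WT and 18.1% ± 8.7 in C6KO, and Timp3 27.7% ± 2.2 and 41.2% ± 5.2, while Timp2 made up 25.6% ± 0.26 and 16.1% ± 5.1. In eWAT, Timp4 made up 1.59% ± 0.25 in WT and 5.61% ± 1.9 in C6KO, and Timp2 stayed the leading gene at 43.4% ± 2.2 and 40.5% ± 1.3. In BAT, Timp3 made up 42.4% ± 8.5 in WT and 53.8% ± 6.1 in C6KO. Shares add up to the whole, so a higher share of 1 gene lowers the others.

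**Figure D4:**
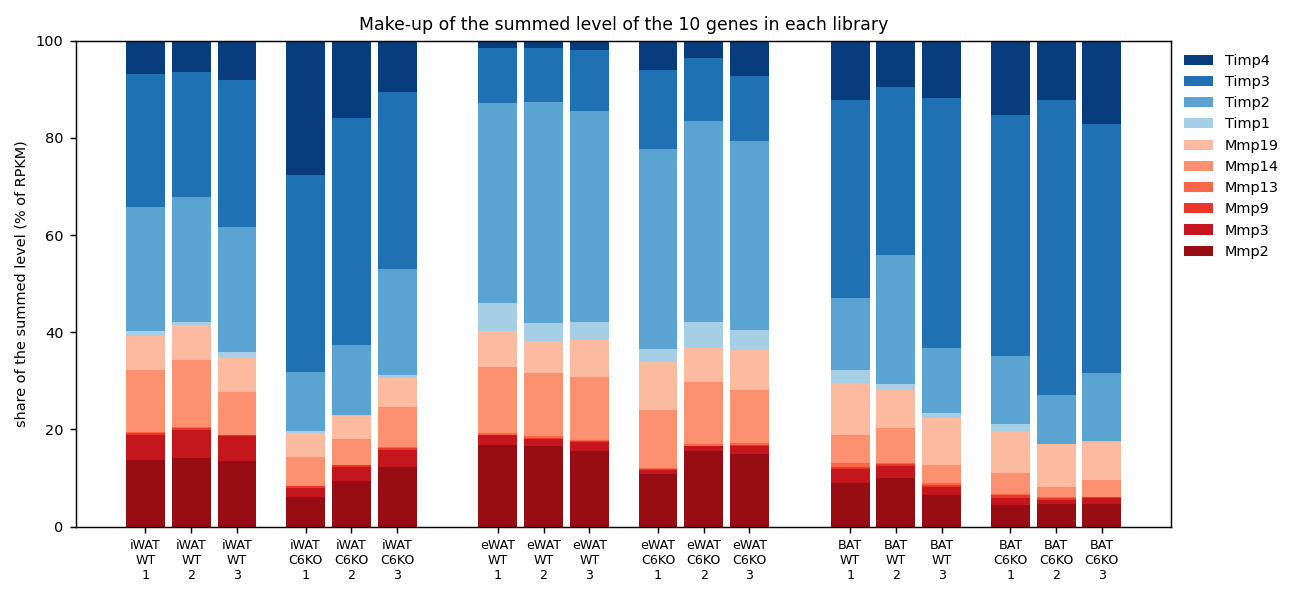
Share of each gene in the summed level of the 10 genes (percent of RPKM, vertical axis) in each of the 18 libraries, with proteinases in red and inhibitors in blue. Timp2 is the widest band in eWAT at 43.4% in WT, and Timp3 in BAT at 42.4% in WT.

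The wider protease and matrix system was described by lists of 17 other matrix metalloproteinases, 19 ADAMTS proteases, 12 ADAM proteases, 17 activators, inhibitors and clearance genes and 21 matrix substrates. No gene of these lists passed the test in iWAT or eWAT in edgeR, and 5 passed in BAT, all lower in C6KO, beside 1.07% of all genes in this direction. Of the matrix substrates, 2 of 21 tested passed, with a list median of -0.68 against -0.03 over all genes, and 1 gene passed in each of the other metalloproteinases (7 tested), the ADAMTS proteases (12 tested) and the ADAM proteases (10 tested). None of the 14 activators, inhibitors and clearance genes tested passed in BAT, where 6 had lower and 1 a higher estimate with p below 0.05 before adjustment, beside 8.64% and 4.56% of all genes. In iWAT, 11 of 21 matrix substrates had lower and 1 a higher estimate with such a p, beside 9.29% and 7.25% of all genes, with a median of -0.63 against 0.03 over all genes. In eWAT the lists went both ways, beside 9.81% of all genes higher and 7.82% lower with such a p. Of 10 other metalloproteinases tested there, 4 were higher and 0 lower, and of 15 ADAMTS proteases 3 were higher and 1 lower. Of 10 ADAM proteases 0 were higher and 2 lower, and of 21 matrix substrates 3 were higher and 6 lower.

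Mmp12, the macrophage elastase, was at 710, 752 and 472 counts in BAT WT and at 40, 25 and 55 in C6KO, and fell by 4.09 on the log2 scale (SE 0.41, edgeR adjusted p = 0.00960), and by 4.11 without WT replicate 2 (adjusted p = 0.0133). Mmp12 was at a higher level in eWAT, at 194 to 369 RPKM in WT and 223 to 267 in C6KO, where the groups overlapped. In iWAT, Mmp12 was at 51.9 to 65.8 RPKM in WT and at 6.40, 6.06 and 38.4 in C6KO, the last being C6KO replicate 3 (log2 fold change -1.83, adjusted p = 0.281, and -3.29 with adjusted p = 7.94e-05 without that library).

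Adam8, a membrane protease of myeloid cells, was counted 170, 209 and 228 times in the BAT WT libraries, against 31, 34 and 35 times in C6KO (log2 fold change -2.68, adjusted p = 0.00153, and -2.76 with adjusted p = 0.000981 without WT replicate 2). Adamts5, an aggrecan-cutting protease, fell by 1.45 on the log2 scale (adjusted p = 0.0318), and by 1.10 without WT replicate 2, its highest library. The fibrillar collagen genes Col3a1 and Col5a2 fell by 1.70 and 1.36 (adjusted p = 0.00972 and 0.0132), and by 1.57 and 1.15 without WT replicate 2. Leaving out 1 library ended the call of Adamts5 in 4 of 6 cases (WT replicate 1 and each C6KO replicate, adjusted p 0.0567 to 0.152), of Col5a2 in 3 (each C6KO replicate, 0.0625 to 0.0959), of Col3a1 in 2 (C6KO replicates 1 and 3, 0.0702 and 0.0672) and of Mmp12 in 1 (C6KO replicate 1, 0.0535), and never that of Adam8.

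Markers of other cell types also differed with genotype. Of 10 macrophage markers, 10 had lower estimates in C6KO in every depot. In iWAT, eWAT and BAT 0, 0 and 3 of them passed the test, beside 1.07% of all genes as lower in BAT. Their summed level was 1354 to 1518 RPKM in iWAT WT and 333 to 1020 in C6KO, 4423 to 5858 and 2694 to 3791 in eWAT, and 556 to 821 and 193 to 328 in BAT. Of 6 markers of lipid-associated macrophages, 5 passed in BAT, all lower, with a summed level of 160 to 237 RPKM in WT and 22.1 to 43.1 in C6KO, and none passed in iWAT or eWAT. In eWAT, these markers summed to 2260 to 3260 RPKM in WT and 2376 to 2775 in C6KO. No macrophage marker was at 0.

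Markers of fibroblasts and adipocyte progenitors, cells known to express Mmp2, Mmp14 and Timp2, had lower estimates in C6KO for 7 of 7 genes in every depot, and 1 passed, in BAT. They summed to 1177 to 1249 RPKM in iWAT WT and to 725, 1121 and 1183 in iWAT C6KO replicates 1, 2 and 3. The low library was also the lowest C6KO library in Mmp2, Mmp3, Mmp9, Mmp14, Mmp19 and Timp2. In eWAT they summed to 1465 to 1698 in WT and 1070 to 1410 in C6KO, and in BAT to 309 to 625 and 258 to 379, with the highest value in WT replicate 2. In eWAT, 5 of 5 endothelial and 6 of 6 adipocyte markers had higher estimates in C6KO, with 1 (Cldn5) and 2 (Lipe and Plin1) passing the test. Over all genes 0.537% passed as higher there. Endothelial markers summed to 142 to 169 RPKM in WT and 232 to 252 in C6KO, and adipocyte markers to 8875 to 11108 and 12057 to 16327. In iWAT, 2 endothelial markers had higher and 3 lower estimates, with sums of 362 to 511 RPKM in WT and 336 to 496 in C6KO. In BAT, 4 endothelial markers were higher and 1 lower, at 240 to 315 and 297 to 309 RPKM. No endothelial marker passed in iWAT or BAT. Of the adipocyte markers in iWAT, 5 had higher and 1 a lower estimate, and none passed. In BAT, 1 adipocyte marker passed, in the opposite direction: Lep, the hormone leptin, fell by 3.35 on the log2 scale (adjusted p = 0.0146), with adipocyte marker sums of 16121 to 30364 RPKM in WT and 18725 to 22286 in C6KO. No fibroblast, endothelial or adipocyte marker was at 0.

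Of 6 mast cell markers, 3 passed in eWAT, all lower, with sums of 179 to 271 RPKM in WT and 79.4 to 122 in C6KO. Over all genes 0.746% passed in eWAT in either direction. Neutrophil markers, the cell type best known for Mmp9, were low (4.25 to 42.1 RPKM in sum over all libraries of WT, 4.45 to 39.1 in C6KO), with Ly6g at 0 in all libraries. Skeletal muscle markers in BAT summed to 18.7, 13890 and 552 RPKM in WT replicates 1, 2 and 3 and to 149 to 2425 in C6KO, and none passed. Of 5 mesothelial markers, only Lrrn4 was expressed enough to be tested in iWAT and BAT. In BAT, Lrrn4 rose from a mean of 0.88 CPM in WT to 4.69 in C6KO (edgeR adjusted p = 0.0282). In iWAT, its mean was 0.98 CPM in WT and 4.19 in C6KO, higher without overlap, but it did not pass (edgeR adjusted p = 0.153). In eWAT, 5 of 5 mesothelial markers had lower estimates in C6KO and none passed. What part these cell types have in the values of the proteinases and inhibitors was not tested.

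Some counts may include reads of overlapping genes, since the strand setting of the counting is not given in the sources used here. In the GENCODE annotation of the same genome build, Timp1, Timp3 and Timp4 lie within the synapsin genes Syn1, Syn3 and Syn2 on the opposite strand. Exons of Timp3 and Syn3 share 1733 bases and those of Timp4 and Syn2 share 90, while Timp1 and Syn1 share none. The synapsins had 8 to 141 (Syn1), 58 to 287 (Syn2) and 13 to 80 (Syn3) counts over all libraries, and in some depots they differed between genotypes in the direction of the inhibitor that lies within them. Syn1 in iWAT was counted 55, 58 and 68 times in WT against 19, 15 and 27 times in C6KO, about as often as Timp1 and also without overlap. Syn2 was counted 131, 135 and 213 times in iWAT WT against 287, 240 and 230 times in C6KO, and 79, 65 and 67 times in eWAT WT against 119, 108 and 194 times in C6KO, higher without overlap in both depots as Timp4 was. Syn3 in eWAT went the other way from Timp3. It was counted 61, 66 and 62 times in WT against 29, 57 and 55 times in C6KO, lower without overlap. The Timp3 groups overlapped there, with a higher estimate in C6KO (log2 fold change 0.17). Whether an inhibitor and its synapsin shared reads was not tested. Exons of Mmp19 share 789 bases with Tmem198b on the opposite strand, which held 234 to 1462 counts, and 212 with the antisense transcript Gm47093. For Timp1, the BAT table used another transcript, of 882 bases in place of 879.

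Genes whose log2 CPM followed the members most closely over the 18 libraries, after each depot's mean was subtracted, were named for the called member and for the member with the smallest adjusted p in the other depots. For Timp4 these were Tinagl1 (Pearson r = 0.945), Gpr182 (0.932) and Acad12 (0.928). For Mmp14 they were Mfap2 (0.953), Scara3 (0.944) and Cd34 (0.935), and for Mmp3 they were Fbln7 (0.926), Ctsh (0.895) and Lum (0.889). The libraries share the difference between genotypes, so these values are a description. Among the members, Mmp14 and Timp2 (r = 0.862), Mmp2 and Mmp3 (0.863) and Mmp2 and Timp2 (0.847) were the most alike pairs, and Timp1 and Timp3 (-0.769) the most opposed.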

How the data were processed

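RNA of 18 fat samples (3 per depot and genotype) was poly(A)-selected and sequenced. The authors aligned reads with STAR to mm10 and counted them over exons with HOMER, and the deposited tables hold these raw counts, 1 table per depot. Aligner version, annotation and strand setting are not given in the sources used here. The processing notes also name DESeq2. Groups came from the sample labels. The 10 genes, the gene lists and the markers were chosen with earlier results of these data known.

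Genotypes were compared in each depot with the quasi-likelihood test of edgeR 4.0.16 (R 4.3.3, limma 3.58.1) after the expression filter and TMM scaling, and depots and differences of effects in 1 fit of 18 libraries. P-values were adjusted by Benjamini-Hochberg over all genes tested. A gene passed at an adjusted p below 0.05 and at least 1.5-fold (differences of effects by the adjusted p alone). The p-values rest on the spread within groups, estimated over both genotypes of a depot or over all 18 libraries, and in part shared across genes. CPM used TMM within a depot and RPKM used TMM over 18 libraries with the deposited lengths. Correlations were taken on log2 CPM (1 count as prior). The text names all 10 genes, Casp6, list genes that passed in a genotype comparison (up to 4 per list and depot), overlapping genes and the 3 genes most alike. Other genes are named to describe a library or depot.

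Scripts were tested on simulated data. Alternatives were DESeq2 1.42.0, its size factors, total counts, no filter, all 18 libraries, a replicate block, genes with the same transcript in every table (22505 of 25124) and each library left out. Correlations of deviations from group means ran from -0.603 to 0.161 between same-numbered WT and C6KO libraries. Between same-numbered libraries of 2 depots in the same genotype they ran from -0.0655 to 0.219. With 3 libraries per group these values cannot exclude pairing, and the labels do not give it. Numbers were not treated as pairs in the main fits. Python 3.11.15 with matplotlib 3.10.9 made the figures. Sequences are from RefSeq tables (GRCm38.p6). With 3 libraries per group, intervals and floors cover only what these libraries show.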

Additional observations from a re-analysis of the deposited data

How the results depend on the processing

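Of the 10 genes, iWAT members that passed numbered 5 with DESeq2 and 1 with all 18 libraries in 1 fit, against 0, and eWAT members 0 with total counts as the only scaling and 0 with all 18 libraries, against 1. Replicate numbers were not treated as pairs in the main fits. With a replicate block the members that passed numbered 0, 1 and 0 in iWAT, eWAT and BAT, 7, 5 and 7 between depots in WT (eWAT against iWAT, BAT against iWAT, BAT against eWAT), 9, 5 and 6 in C6KO and 0 for differences of effects. Over all genes the block gave 8 higher and 54 lower for iWAT, 298 and 116 for eWAT, and 12 higher for BAT. Leaving out 1 library each gave 0 to 6 members in iWAT, 0 to 1 in eWAT and 4 to 7 for eWAT against iWAT in WT.

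Over all genes the iWAT test passed 1 higher and 3 lower, the eWAT test 80 and 31 and the BAT test 23 and 145. DESeq2 gave 169 and 505, 429 and 189, and 156 and 389. The fit of all 18 libraries gave 58 and 308, 1 and 3, and 95 and 430. With no filter, these were 6 and 26 (iWAT), 224 and 97 (eWAT) and 47 higher (BAT), and with total counts 39 higher in eWAT and 1088 lower (against 1670) for eWAT against iWAT in C6KO. For differences of effects DESeq2 gave 9 and 5 (against 0 and 0), 64 and 107 (11 and 18), and 59 and 296 (8 and 77). The cause was not tested.

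Small log2 values changed sign. Mmp19 in BAT was 0.015 with DESeq2, 0.012 with its size factors in edgeR and 0.022 without a filter, against -0.0072. Adamts5 in iWAT was -0.027 with total counts and -0.044 with the block, against 0.051. Timp3 was -0.086 for BAT against eWAT in WT with total counts, against 0.20, and its difference of effects, BAT minus iWAT, was 0.036 with total counts and 0.0038 with the block, against -0.0098. Timp4 for BAT against eWAT in C6KO was 0.0062 with the block, against -0.0097. Total counts put the summed level in eWAT at 802 RPKM in WT and 724 in C6KO, against 717 and 666. Without subtracting depot means, 1, 0 and 0 of the 3 genes most like Timp4, Mmp14 and Mmp3 were shared.

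Leaving out 1 library changed the sign of these log2 values, given as ranges. For C6KO against WT in iWAT, Mmp9 was -0.034 to 0.57 and Adamts5 -0.36 to 0.30. For C6KO against WT in eWAT, Mmp9 was -0.27 to 0.65, Mmp19 -0.023 to 0.19, Timp1 -0.52 to 0.095 and Mmp12 -0.43 to 0.017. For C6KO against WT in BAT, Mmp9 was -0.29 to 0.18, Mmp19 -0.13 to 0.17 and Timp2 -0.63 to 0.072. For BAT against iWAT in WT, Mmp13 was -0.11 to 0.62. For the C6KO effect, eWAT minus iWAT, Mmp2 was -0.0025 to 0.49 and Mmp9 -0.51 to 0.38. For the C6KO effect, BAT minus iWAT, Mmp2 was -0.42 to 0.100, Mmp3 -0.15 to 0.31, Mmp14 -0.0034 to 0.53, Timp1 -1.98 to 0.024 and Timp3 -0.21 to 0.26. For BAT against eWAT in WT, Timp3 was -0.014 to 0.31. For the C6KO effect, BAT minus eWAT, Mmp3 was -0.45 to 0.075, Mmp9 -0.68 to 0.21, Mmp13 -0.66 to 0.073, Mmp19 -0.25 to 0.039 and Timp2 -0.44 to 0.23. For BAT against eWAT in C6KO, Mmp9 was -0.84 to 0.051 and Timp4 -0.24 to 0.21.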
